A study of Mus musculus with 22 samples.

Results

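Angiopoietins and angiopoietin-like genes were followed in FE1 cells exposed to Mitsui7, a multiwalled carbon nanotube. The genes were chosen by name as the 6 whose probes map to Angptl7, Angptl2, Angptl4, Angpt1, Angpt2 and Tek, and each had 1 probe, so they make up 6 of the 20018 genes and 6 of the 55681 probes measured. In that order the Agilent probes were A_51_P220150, A_52_P853177, A_51_P338443, A_55_P2158227, A_51_P201982 and A_55_P2262136. They were picked with the dose contrasts of these arrays already known. The differences of these 6 genes between groups are therefore given as a description, without p-values. FE1 is an established epithelial line from the lung of the MutaMouse, a transgenic mouse that carries a bacterial reporter gene, so every culture was of 1 line and animal background. Cells were cultured for 24 h with vehicle alone (the control, 0 µg/ml, 5 arrays) or with Mitsui7. The low dose was 12.5 µg/ml, hybridised to 6 arrays, the medium dose 25 µg/ml, to 5 arrays, and the high dose 100 µg/ml, to 6 arrays. RNA of the cells was labelled with Cy5 on all 22 arrays and hybridised together with Cy3-labelled RNA pooled from mouse cell lines as a common reference.

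Angiopoietins are secreted ligands of Tie2, the receptor tyrosine kinase encoded by Tek, which is found mainly on endothelial cells. Angpt1 is the activating ligand, made by pericytes, other mural cells and fibroblasts, and steadies vessels. Angpt2, released by endothelial cells, can oppose it and accompanies vessel remodelling and leak. Angiopoietin-like proteins share the fold of the angiopoietins and do not bind Tie2. Angptl4 inhibits lipoprotein lipase and responds to fatty acids, fasting and hypoxia, Angptl2 is a secreted protein linked to inflammation and integrin binding, and Angptl7 is a secreted protein known from the cornea and the outflow tissue of the eye, where it affects extracellular matrix.

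The 250 bases before the transcription start of Angptl7 are shown because this gene had the largest differences among the 6. The sequence comes from RefSeq on GRCm38.p6, covers chr4:148500463-148500712 on the minus strand and ends at the base before the start.
Angptl7: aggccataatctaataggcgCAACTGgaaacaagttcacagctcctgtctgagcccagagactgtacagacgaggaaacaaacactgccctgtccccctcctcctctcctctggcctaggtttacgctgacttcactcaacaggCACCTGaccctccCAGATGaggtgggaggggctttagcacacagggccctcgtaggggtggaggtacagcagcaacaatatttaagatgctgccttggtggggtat
Capitals mark the 3 matches to the E-box, CANNTG, which begin 230, 106 and 93 bases before the start. The window has a GC content of 54.4%, against a median of 52.4% over 32851 windows of the same length. An E-box was found in 66.2% of those windows on either strand, and its letters can overlap those of the hypoxia core. Letters of the TATA box (TATAAA, in 12.4% of windows), the CAAT box (CCAAT, 33.8%), the AP-1 site (TGANTCA, 6.75%), the core of the hypoxia response element (ACGTG, 16.6%), the half-site of PPAR and other nuclear receptors (AGGTCA, 14.0%) and the half-site of the glucocorticoid receptor (AGAACA, 16.1%) did not occur in this window on either strand. These matches describe letters in 1 window and say nothing of binding in FE1 cells.

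Values are log2 ratios of sample over reference after loess normalization within each array, so a ratio of 0 means equal signal in both dyes. Differences between doses were taken from 1 limma model over all arrays with slide as a term. A gene was called where the difference was at least 1.5-fold, its p adjusted over all probes was at most 0.05, and 4 or more arrays of 1 of the groups detected the probe. Detection required a Cy5 signal above that of the array's negative controls, a threshold that lay between 74.3 and 119 units, and 23688 to 39139 probes per array passed it. The scanner software also marked each spot as well above its local background or not. The arrays lay on 5 slides, of which 4 held every group and the other held a low and a high dose array. Cells were exposed in 3 separate experiments by the study's methods, fewer than the arrays of a group, and which arrays share an experiment is not stated, so errors and p-values measure the spread between arrays and may be too small. The defining epithelial markers Epcam and Cdh1 and the lung marker Nkx2-1 were not well above background on any array, while 4 of 7 epithelial markers, among them Krt8 and Krt18, and 7 of 7 mesenchymal markers were well above it in at least 4 of the 5 controls. No lung epithelial marker of 7 reached that, though Scgb1a1, Aqp5 and Sftpc were well above background on 18, 15 and 14 of the 22 arrays. Ager was so on 2 arrays, and 3 of the 7 on none.

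Angptl7 RNA was measurable in every control and lay at or near background in the exposed cells. In the 5 controls its log2 ratios were 0.29, 0.76, 0.16, -0.27 and -0.08. At the low dose they ran from -2.86 through a median of -1.90 to -1.23. At the medium dose the 5 ratios were -2.19, -1.98, -2.44, -2.16 and -2.22, and at the high dose they ran from -3.01 through a median of -2.14 to -1.99. Every one of the 17 exposed arrays therefore lay below every control, with a gap of about 1 log2 unit between the highest exposed and the lowest control array. Group means were 0.17 ± 0.39 (SD, n = 5) in controls, -1.93 ± 0.63 (n = 6) at the low dose, -2.20 ± 0.16 (n = 5) at the medium dose and -2.27 ± 0.37 (n = 6) at the high dose.

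**Figure D1:**
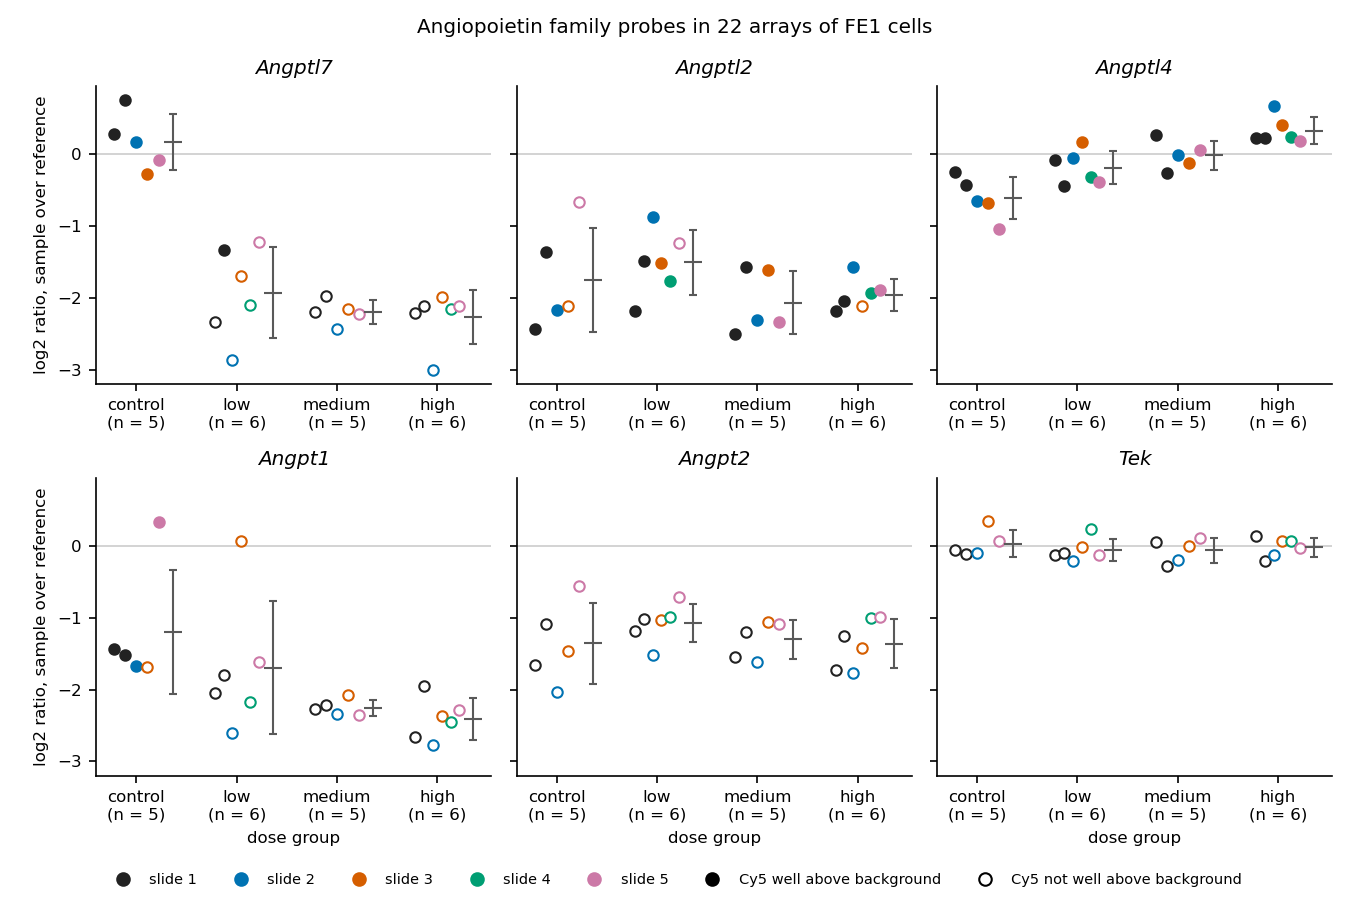
Log2 ratios of sample over reference (y axis) for the 6 member probes in the 22 arrays, by dose group (x axis); points are arrays coloured by slide, open where the Cy5 signal was not well above background, and bars are means ± SD. Angptl7 was measured in all 5 controls and lay lower in all 17 exposed arrays, and Angptl4 moved up from -0.61 in controls to 0.32 at the high dose.

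The signal of the sample dye showed the same loss before any normalization. Cy5 signal at the Angptl7 probe was 138 to 832 in the controls and 68 to 98 in the 17 exposed arrays, whereas the Cy3 signal of the reference was well above background in all 22 arrays. The Cy5 spot was well above background in 5 of 5 controls, in 1 of 6 arrays at the low dose and in none of the 5 and 6 arrays at the medium and high doses. The detection threshold was passed on 5 of 6 low, 2 of 5 medium and 1 of 6 high dose arrays, with signals of at most 98. The exposed ratios thus carry a Cy5 signal at or near background, and their order between doses carries no order of RNA amounts. In the fit, the log2 difference from control was -2.09 (SE 0.21) at the low dose, where only 1 of 6 arrays was well above background. The size of the loss is therefore given as a bound from Cy5 signals after loess and Aquantile normalization, open to dye bias because dyes were never swapped. Each exposed array entered with its measured signal or, where higher, the lowest signal of its probes well above background. That floor was the higher value on 0 low, 0 medium and 1 high dose array, so nearly all values are measured signals. By that bound Angptl7 was at least 3.70-fold lower at the low dose, at least 4.41-fold lower at the medium dose and at least 4.57-fold lower at the high dose. The bound rests on the mean of the 5 controls and does not allow for their spread. With rising dose it was 3.38, 4.03 and 4.17 without control replicate 3, and 4, 4.77 and 4.94 without control replicate 5. The fitted log2 differences at the medium and high doses were -2.37 (SE 0.22) and -2.43 (SE 0.21). Within the 4 slides that held both groups, the difference from control was negative every time. It spanned -3.03 to -1.15 for the low, -2.61 to -1.89 for the medium and -3.17 to -1.72 for the high dose. With the scanner software's background-subtracted ratio the differences were -4.06, -5.25 and -5.37. Without slide 1, which held 8 of the arrays, they were -2.21 at the medium and -2.26 at the high dose and no longer met the call rule, while the low dose call held.

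**Figure D2:**
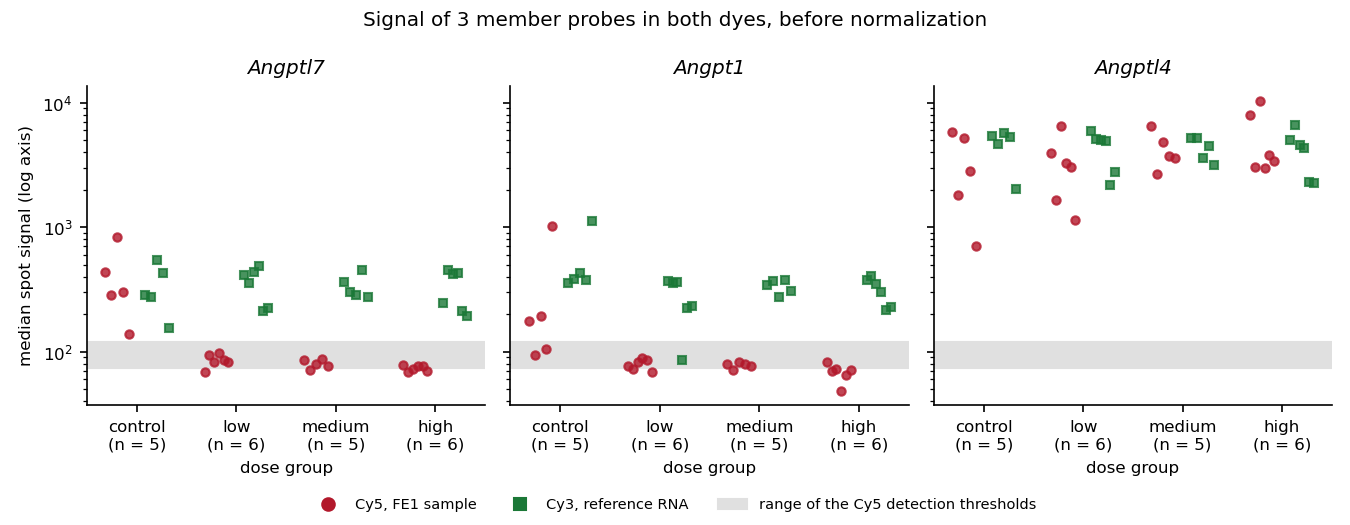
Median spot signal before normalization (y axis, log scale) in Cy5, the FE1 sample, and Cy3, the reference RNA, for the probes of Angptl7, Angpt1 and Angptl4 by dose group (x axis), 1 point per array; the grey band spans the detection thresholds of the arrays, 74.3 to 119. The Cy5 signal of Angptl7 was 138 to 832 in controls and 68 to 98 after exposure, while that of Angptl4 stayed between 700 and 10425.

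Angpt1, the activating Tie2 ligand, was dim in controls and not well above background in any exposed array. Its control ratios were -1.43, -1.52, -1.67, -1.69 and 0.34. At the low dose they ran from -2.60 through a median of -1.92 to 0.06. At the medium dose they were -2.26, -2.21, -2.34, -2.08 and -2.36, and at the high dose they ran from -2.77 through a median of -2.41 to -1.95. All medium and high dose arrays lay below all controls, and the low dose arrays overlapped with them. The spot of control replicate 5 stood apart in both dyes, with a Cy5 signal of 1013 and a Cy3 signal of 1124, where the Cy3 signal of the other controls was 357 to 430. That of low dose replicate 4 stood apart in Cy3, at 85 against 222 to 372 in its group, while its Cy5 signal of 89 was at background like the rest.

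Cy5 at the Angpt1 probe was well above background in 4 of 5 controls and in 0 of 17 exposed arrays. The fitted log2 differences from control were -0.45 (SE 0.33), -1.06 (SE 0.34) and -1.17 (SE 0.33), and the 95% interval at the low dose, -1.14 to 0.25, held 0. Without control replicate 5 they were -0.06, -0.67 and -0.78. A Cy5 fold computed as for Angptl7 was 2.82, 2.99 and 3.39 with that control and 1.48, 1.57 and 1.78 without it. Because this 1 spot set its size and another control was itself at background, the fold is not given as a bound. Within slides the differences at the low dose had both signs, from -1.95 to 1.75, and those at the high dose were negative on 4 of 4 slides, from -2.63 to -0.68. The high dose difference met the call rule and did not do so without control replicate 1, 2, 3 or 5, without high dose replicate 1, 3, 4 or 6, or without slide 1, 2 or 5. It was also lost with median centring, at -0.95, without a slide term, and where detection was required in every array. The medium dose difference met it only when control replicate 4, low dose replicate 4 or slide 3 was left out, or with the scanner software's ratio or the authors' values. Without low dose replicate 4 the low dose difference was -0.85.

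Angptl4, the inhibitor of lipoprotein lipase, was bright in every array and stood higher with each dose. Its control ratios were -0.26, -0.43, -0.66, -0.68 and -1.04. At the low dose they ran from -0.45 through a median of -0.20 to 0.17. At the medium dose they were 0.27, -0.27, -0.02, -0.13 and 0.05, and at the high dose they ran from 0.18 through a median of 0.23 to 0.67. All 6 high dose arrays lay above all 5 controls and above all 6 low dose arrays, whereas 3 of 6 low dose and 4 of 5 medium dose arrays lay above every control. Means were -0.61 ± 0.30 (SD, n = 5), -0.19 ± 0.23 (n = 6), -0.02 ± 0.20 (n = 5) and 0.32 ± 0.19 (n = 6) from control to high dose.

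The fitted log2 difference of Angptl4 from control was 0.45 (SE 0.13) at the low dose, 0.59 (SE 0.14) at the medium dose and 0.96 (SE 0.13) at the high dose, the last a size of 1.94-fold. High against low dose it was 0.51 (SE 0.13), 1.43-fold, which is below the fold required for a call. The difference from control was positive on 4 of 4 slides at every dose, from 0.08 to 0.85, 0.34 to 1.09 and 0.56 to 1.32, and the high dose arrays were above the low dose arrays on 5 of 5 slides. The medium dose difference lies at the edge of the call rule and did not meet it without control replicate 3, 4 or 5, without medium dose replicate 1 or 5, or without slide 1, 2 or 5, where it was 0.47 to 0.76. It was also lost with normexp background correction, at 0.58, with median centring, at 0.69, and with the authors' values, at 0.50. The high dose call was lost with median centring, at 0.92, and the low dose difference met the rule only without slide 1, at 0.69.

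Angptl2, Angpt2 and Tek showed no difference from control beyond the spread of the arrays. Angptl2 was dim, well above background in 18 of 22 arrays, with group means of -1.75 ± 0.72 (SD, n = 5), -1.51 ± 0.45 (n = 6), -2.07 ± 0.44 (n = 5) and -1.96 ± 0.22 (n = 6) from control to high dose. Its 5 control ratios were -2.44, -1.37, -2.17, -2.11 and -0.67, a spread that took in most exposed arrays. Its differences from control were 0.27 (SE 0.27), -0.32 (SE 0.28) and -0.18 (SE 0.27), and within slides they had both signs at every dose.

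Angpt2, the context-dependent Tie2 ligand, was not well above background in Cy5 on any of the 22 arrays, though the reference dye was on all 22. Its ratios ran from -2.03 to -0.56 over all arrays and its Cy5 signal from 66 to 98, so no fold between doses can be given. Tek, the receptor itself, was not detected on any array: its Cy5 signal was 61.5 to 77, and its Cy3 signal was well above background on 2 of 22. Its ratios of -0.28 to 0.34 are ratios of background in both dyes. The endothelial markers Cdh5 and Erg were likewise never well above background, 2 of 8 endothelial markers (Kdr and Pecam1) were well above it in at least 4 controls, and none of the 8 was called at any dose. The summed Cy5 signal of the 8, before normalization, was 1946 to 6448 in controls and 2602 to 5067 at the high dose. It was led by Kdr, with a control median of 4226, against at most 124 for each of the others.

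Counted together, 1 of the 6 genes met the call rule at the low dose, against 3.60% of all genes tested. At the medium dose 2 of 6 did, against 6.01%, and at the high dose 3 of 6, against 8.35%. High against low dose none of the 6 did, against 0.330% of all genes. Groups did not overlap for 1 of 6 genes at the low dose (3.40% of all genes), 2 of 6 at the medium (6.97%), 3 of 6 at the high dose (8.14%) and 1 of 6 between high and low dose (0.604%). These contrasts chose the genes, so the counts describe the choice. With rising dose the median log2 difference of the 6 from control was 0.06, -0.20 and -0.13, and over all genes it was 0.00 at each dose. All 3 exposed groups were set against the same 5 controls. The count at the medium dose was 1 without control replicate 3 or 5 or medium dose replicate 1 or 5, and 3 without low dose replicate 4.

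Across the 22 arrays, after removing slide differences, Angptl7 and Angptl4 ran in opposite directions (Pearson's r = -0.75) and Angptl7 and Angpt1 together (r = 0.59). These points share dose groups, slides and the reference RNA, and the values of Angptl7 and Angpt1 in exposed arrays lie at or near background, so the coefficients are a description. Angptl2 and Angpt2 had r = 0.78, although Angpt2 was not well above background in Cy5 on any array and passed the detection threshold on 10 of 22. Over 16027 detected probes with a gene name and a value on every array, the patterns most like that of Angptl7 were those of Islr (r = 0.98), Fmod, the matrix proteoglycan fibromodulin (r = 0.97), and Pdgfra, a growth factor receptor of mesenchymal cells (r = 0.96). For Angptl4 they were Cited1 (0.94), Cdca7 (0.93) and Nop56 (0.93), and for Angpt1 P4ha2, a collagen prolyl hydroxylase (0.91), Fhod3 (0.90) and Tmem242 (0.89). For Angptl2 they were Birc3 (0.90), Mpp1 (0.85) and Pex10 (0.85), and for Angpt2 they included Ctsc (0.94) and Srgn (0.87).

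Of 7 mesenchymal markers measured, 4 were lower at the high dose, as were Angptl7 and Angpt1, beside 4.52% of all genes. Pdgfra, Pdgfrb, Col1a1 and Col3a1 were called, with log2 differences of -1.53, -1.34, -1.34 and -1.70, while Vim, Thy1 and Acta2 were not called, at 0.14, -0.02 and -0.70. The summed Cy5 signal of the 7 before normalization, led by collagens, vimentin and Acta2, was 83044 to 458013 in controls and 95072 to 257982 at the high dose. In bulk RNA, fewer cells of a type and less RNA per cell cannot be told apart, and the part of these markers in the Angptl7 and Angpt1 values was not tested. Among epithelial markers only Krt7 was called, with log2 differences of -0.79 and -0.85 at the medium and high doses, and of the 5 leukocyte markers measured none was.

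Of 4 further family genes followed, Angptl6 rose at every dose and the other 3 were not called at any. Angptl6 encodes a secreted protein, also named angiopoietin-related growth factor, that is known for effects on energy use and skin. Its log2 ratios were -1.52, -1.34, -0.53, -0.29 and -0.42 in controls. At the low dose they ran from 0.01 through a median of 0.27 to 0.45. At the medium dose they were 0.92, 0.54, 1.48, 0.45 and 0.84, and at the high dose they ran from 0.87 through a median of 1.45 to 1.89. Every exposed array lay above every control, and every high dose array above every low dose array. The Cy5 spot was well above background on all 22 arrays, with a median signal of 1850 in controls and 8644 at the high dose.

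Angptl6 was higher than control by 1.08 (SE 0.20) at the low dose in limma (adjusted p = 0.0034), 2.12-fold in size. At the medium dose it was higher by 1.66 (SE 0.21, limma adjusted p = 3.45e-05) and at the high dose by 2.24 (SE 0.20, limma adjusted p = 3.67e-07), 4.71-fold. High against low dose it was higher by 1.15 (SE 0.19, limma adjusted p = 0.0101), the same way on 5 of 5 slides, from 0.95 to 1.33. Without slide 1 the low and medium dose calls were lost, at 0.71 and 1.33. The high against low call was lost without low dose replicate 5, high dose replicate 5, slide 2 or slide 4, where the difference was 1.12 to 1.13.

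Of the other 3, Angptl8, a secreted protein that takes part in the control of lipoprotein lipase, was well above background on all arrays and lay 0.23, 0.06 and 0.18 above control (limma adjusted p = 0.321, 0.875 and 0.412). Angpt4, a Tie2 ligand, was well above background on 2 of 5 controls and no exposed array. It lay -0.28, -0.32 and -0.39 from control (limma adjusted p = 0.182, 0.102 and 0.0209). The high dose difference was below the fold and the detection required for a call. Angptl1 was not well above background on any array, with differences of -0.16, -0.19 and -0.18. The list thus had 1 gene of 4 called higher and none lower at each dose, with medians of 0.03, -0.07 and -6e-04 on the log2 scale.

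**Figure D3:**
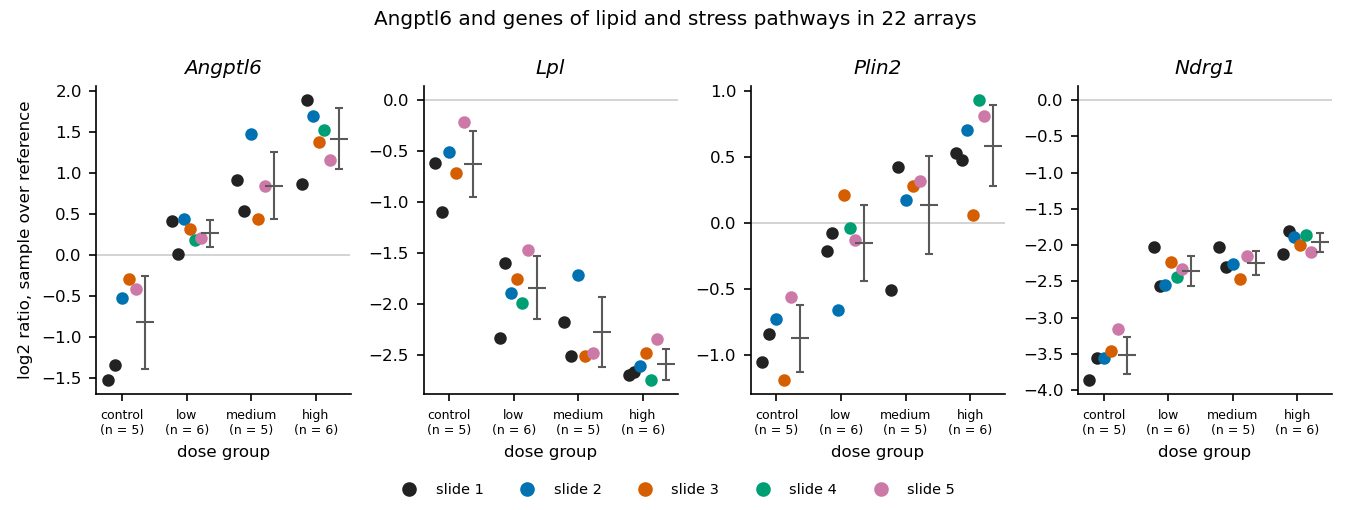
Log2 ratios of sample over reference (y axes, each with its own scale) for Angptl6, Lpl, Plin2 and Ndrg1 in the 22 arrays by dose group (x axis); points are arrays coloured by slide and bars are means ± SD. Angptl6 went from a mean of -0.82 in controls to 1.42 at the high dose and Lpl from -0.63 to -2.59, with no overlap between either exposed group and the controls.

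RNA of Lpl, which encodes the enzyme that Angptl4 protein inhibits, was lower at every dose, while Angptl4 RNA stood higher. A link between them was not tested. Ratios of Lpl were -0.61, -1.10, -0.51, -0.72 and -0.21 in controls. They ran from -2.33 through a median of -1.82 to -1.47 at the low dose, were -2.17, -2.51, -1.71, -2.50 and -2.48 at the medium dose, and ran from -2.75 through a median of -2.64 to -2.34 at the high dose. No exposed array reached the lowest control. The differences were -1.18 (SE 0.15), -1.64 (SE 0.16) and -1.93 (SE 0.15), with limma adjusted p = 9.08e-05, 1.5e-06 and 6.83e-08. The medium dose call was lost without slide 1, at -1.75. High against low dose Lpl fell by 0.75 (SE 0.14, limma adjusted p = 0.0262), the same way on 5 of 5 slides. That last call was lost when any one of 10 low and high dose arrays or any slide was left out, with differences of -0.78 to -0.67. A second Lpl probe was also called lower at each dose, at -0.69, -0.66 and -0.95, and gave -0.26 (limma adjusted p = 0.647) high against low, so the probes disagree on the last contrast and on the size. The other 7 lipase genes and factors, among them Lipg, Gpihbp1 and the convertase Furin, were not called at any dose.

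PPAR nuclear receptors switch on Angptl4 and genes of fat storage and oxidation. Of 14 such receptors and targets, 2 rose and 1 fell at the low dose, and 2 rose and 2 fell at the medium and at the high dose. With rising dose 1.51%, 2.87% and 3.83% of all genes were called higher and 2.09%, 3.14% and 4.52% lower. Those shares stand beside the counts of this and the other lists. Plin2, which coats lipid droplets, rose by 0.68 (SE 0.17), 1.01 (SE 0.18) and 1.42 (SE 0.17) with limma adjusted p = 0.0303, 0.00102 and 1.29e-05. Fabp4, a fatty acid carrier, rose by 1.06, 1.06 and 1.10 (adjusted p from limma = 0.0352, 0.0306 and 0.0146). The mitochondrial enzyme of fatty acid oxidation Acadm fell by 0.76, 0.85 and 0.92 (limma adjusted p = 6.98e-05, 1.28e-05 and 1.91e-06). Cpt1a, which brings fatty acids into mitochondria, fell by 0.83 at the medium and 0.81 at the high dose (limma adjusted p = 8.3e-05 and 4.63e-05), and at the low dose its difference of -0.50 was below the fold required. The other Cpt1a probe was not called at any dose, with differences of -0.42, -0.44 and -0.54. The genes that store or carry fat and those that oxidise it thus lay on opposite sides of the control, and the median of the 14 was 0.09, -0.07 and -0.02. The calls of Fabp4 were lost at all doses without control replicate 3 or slide 1 or 2. At the low dose this also held for control replicate 1 or 4 and low dose replicate 1, 3 or 4, at the medium dose for control replicate 1 or 4, medium dose replicate 1, 3 or 4 and slide 3, and at the high dose for high dose replicate 6. Its differences without these were 0.73 to 1.14, 0.80 to 1.24 and 0.87 to 1.15. The low dose call of Plin2 was lost without control replicate 1 or 4, low dose replicate 1, 2 or 4, or slide 1, 3 or 5, at 0.52 to 0.74, and without slide 1 no medium dose call of this list held. Cpt1a met the call rule at the low dose without control replicate 1 or slide 1, at -0.60 and -0.59.

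**Figure D4:**
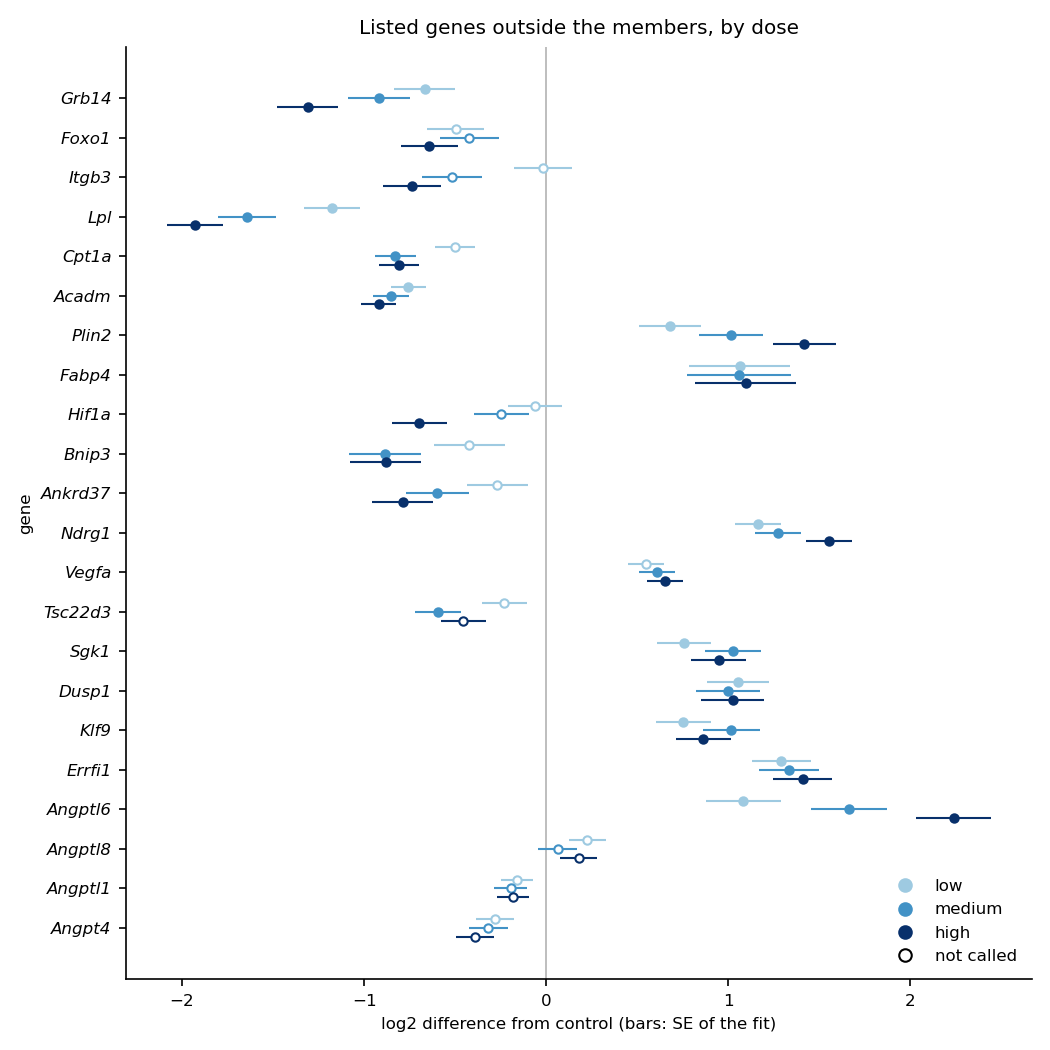
Log2 difference from control (x axis, bars are SE of the fit) at the low, medium and high dose for the 4 further family genes and the 18 other listed genes called at 1 dose or more (y axis); filled points were called. Angptl6 reached 2.24 and Lpl -1.93 at the high dose, and Angptl1, Angptl8 and Angpt4 were not called.

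Angptl4 is also a target of hypoxia, and of 14 hypoxia genes at most 5 were called at any dose. At the low dose 1 rose and none fell, at the medium dose 2 rose and 2 fell, and at the high dose 2 rose and 3 fell. Ndrg1, a stress-responsive gene, rose by 1.16, 1.27 and 1.55 (SE 0.12 to 0.13, limma adjusted p = 9.94e-06, 2.63e-06 and 7.12e-08), and its exposed and control arrays did not overlap. Vegfa, the vascular growth factor, rose by 0.61 at the medium and 0.65 at the high dose (limma adjusted p = 0.00061 and 0.000133), and lay 0.55 above control at the low dose. The mitophagy gene Bnip3 fell by 0.88 at both doses (limma adjusted p = 0.00909 and 0.00513), Ankrd37 by 0.60 and 0.79 (limma adjusted p = 0.0473 and 0.004), and Hif1a, the hypoxia-inducible factor itself, by 0.70 at the high dose (limma adjusted p = 0.00525). The brightest probe of Epas1, the related factor, did not pass at any dose, with differences of 0.26, -0.04 and 0.21. Of its 2 other probes, 1 was called lower at each dose, at -1.31, -1.83 and -2.19, and high against low dose, at -0.88. The other gave -0.47, -0.64 and -0.87 and was called lower at the medium and high doses, so the probes disagree. A second Vegfa probe was called at the low dose, at 0.67, and not at the medium dose, at 0.44, and 1 of the 2 other Bnip3 probes was not called at the medium dose, at -0.52. The median of the list was -0.04, -0.11 and -0.16. The calls lost most readily were Ankrd37 at the medium dose, which 15 of the 22 arrays could end singly, and Vegfa at the medium dose, which control replicate 1 or 5, medium dose replicate 5 or slide 1 or 5 could, at 0.53 to 0.63. Vegfa met the rule at the low dose without control replicate 2 or 3, at 0.60 and 0.59. Bnip3 at the medium dose was lost without slide 1 or 2, at -0.90 and -0.52. Hif1a was lost without control replicate 2 or slide 1, at -0.56 and -0.51, Bnip3 without slide 1 at the high dose, at -0.44, and Ankrd37 without slide 1, at -0.62, and without slide 1 no medium dose call of this list held.

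Glucocorticoids induce Angptl4 and, in the eye, are known to alter Angptl7. Of 10 genes of that pathway 4 rose at each dose, beside 1.51%, 2.87% and 3.83% of all genes with rising dose. At the medium dose 1 fell, beside 3.14% of all genes. The receptor gene Nr3c1 and the targets Fkbp5, Per1, Zbtb16 and Myoc were not called at any dose, with Fkbp5 at 0.23, 0.23 and 0.16. Errfi1, a feedback inhibitor of the EGF receptor, rose by 1.29, 1.34 and 1.41 (adjusted p from limma = 6.25e-05, 2.87e-05 and 6.09e-06). Dusp1, a phosphatase of MAP kinases, rose by 1.05, 1.00 and 1.02 (adjusted p from limma = 0.00094, 0.00115 and 0.000439). The kinase Sgk1 rose by 0.76, 1.03 and 0.95 (adjusted p from limma = 0.00521, 0.000226 and 0.000243), and the transcription factor Klf9 by 0.75, 1.02 and 0.86 (limma adjusted p = 0.00822, 0.000558 and 0.00108). Tsc22d3, a mediator of glucocorticoid action, fell by 0.59 at the medium dose (limma adjusted p = 0.00608) and lay at -0.46 at the high dose. Many of these genes also respond to growth factors and stress, and the median of the list was 0.27, 0.21 and 0.24. Tsc22d3 was lost without control replicate 1, 4 or 5, medium dose replicate 5 or slide 1 or 5, at -0.67 to -0.44, and without slide 1 neither the medium dose calls of this list nor the low dose call of Klf9, at 0.65, held.

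In the Tie receptor complex and its signalling, 1 of 13 genes fell at the low and medium doses and 2 at the high dose, and none rose. Grb14, an adaptor that binds activated receptor kinases, fell by 0.67, 0.92 and 1.31 (SE 0.17, limma adjusted p = 0.0285, 0.00198 and 2.29e-05). Foxo1, a transcription factor held in check by Akt, fell by 0.64 at the high dose (limma adjusted p = 0.0144). Tie1, the orphan partner of Tie2, was not detected on any of the 22 arrays. The low dose call of Grb14 was lost without any of 8 single arrays or slides 1, 2, 3 and 5, at -0.70 to -0.53, and that of Foxo1 without control replicate 2 or 4, high dose replicate 1 or slide 1 or 3, at -0.61 to -0.45. Foxo1 met the rule at the low dose without control replicate 5, low dose replicate 2 or slide 5, at -0.68 to -0.61, and at the medium dose without control replicate 5, at -0.585. Among 8 receptors and partners of angiopoietin-like proteins, only Itgb3, the integrin beta chain that pairs with the alpha v chain, was called. It fell by 0.74 (SE 0.16, limma adjusted p = 0.00435) at the high dose against control and by 0.72 (SE 0.15, limma adjusted p = 0.0419) against the low dose, and the second call was lost without any of 15 single arrays, at -0.74 to -0.65. It met the rule at the medium dose without control replicate 4 or slide 3, at -0.63 and -0.66. A second Itgb3 probe was called in neither contrast, at -0.23 (limma adjusted p = 0.275) against control and -0.30 (limma adjusted p = 0.322) against the low dose.

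Several family genes lie within an intron of another gene in the RefSeq annotation, and none of 5 host genes was called at any dose. Mtor, the kinase gene that holds Angptl7, lay 0.05 (SE 0.12), -0.15 (SE 0.12) and -0.08 (SE 0.12) from control, beside the values of Angptl7 of -2.09, -2.37 and -2.43. Mcph1, which holds Angpt2, lay 0.24, 0.33 and 0.32 above control, and Ralgps1, which holds Angptl2, -0.18, -0.07 and -0.18. The hosts of Angptl1 and Angptl8, which are Ralgps2 and Dock6, lay between -0.02 and 0.24.

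Over all 76 listed genes outside the 6, 8 rose and 3 fell at the low dose, 9 rose and 7 fell at the medium dose, and 9 rose and 9 fell at the high dose. These are 11, 16 and 18 genes. Across all genes 1.51% had a call in the higher and 2.09% in the lower direction at the low dose, and the shares were 2.87% and 3.14% at the medium dose and 3.83% and 4.52% at the high dose. High against low dose, 3 of the 76 were called, Angptl6 higher and Lpl and Itgb3 lower by their brightest probes, beside 0.0599% of all genes called higher and 0.270% called lower, and that count was 6 with the replicate number as a block. The median difference of the 76 was 0.01, -0.04 and -0.06 from control. The lists were written with results of these arrays known, so the counts are no independent evidence of a direction. The count of 3 fell to 0 without low dose replicate 5 or high dose replicate 5, and to 1 without low dose replicate 2 or 6 or high dose replicate 2, 3 or 6. Without slide 1 none of the 16 medium dose calls held.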

How the data were processed

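Each array took its group, dose and sample number from its label. The deposited scanner files hold, per the file headers, the median intensity of each spot and its local background in both dyes, a log10 ratio made by the scanner software and marks for each spot, written by Feature Extraction 10.7.3.1 on an mm9 grid. The study's methods give a different version of that software. The authors also deposited a table of processed log2 ratios whose normalization is not given in the sources used here. Its 22 columns each correlated best with their own array (median r = 0.985), and it was used only as an alternative.

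After the methods of the study, median signals without background subtraction were used. Spots marked as outliers were set to missing, ratios were loess-normalized within arrays (3671 control spots left out) and the spots of a probe were combined by their median. Detection required a Cy5 signal over the 5% trimmed mean plus 3 trimmed SDs of 308 negative control spots. The number of arrays limits the precision. limma 3.58.1 in R 4.3.3 fitted dose and slide over all 22 arrays and 55681 probes, with Benjamini-Hochberg adjustment over all probes; limma took the place of the study's permutation test. The fit was tested on simulated data. Accessions were matched to RefSeq symbols for 26413 probes. Each gene is given by its brightest probe.

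No array pair was a duplicate (highest r = 0.961). Sample numbers in the labels are shared between groups, and all 31 same-number pairs of arrays deviated together (r = 0.178 to 0.817). Of these pairs 27 lay on the same slide, and the deviations were not adjusted for slide. For those 27, pairing by number and a shared slide cannot be told apart. The main fit used slide, and the number was a block only in an alternative. The 6 genes and all lists were chosen with earlier results of these data known. Genes named are the 6, the further family genes and intron hosts on the lists, every listed gene called at any dose, and for each detected member the 3 genes most like it; a few genes under this rule are not reported here and were left out of the counts of listed genes. Promoter matching used Python.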

Additional observations from a re-analysis of the deposited data

Results flagged for a closer look

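In 44 groups of arrays tested for a single array that stands apart from its group, 4 were found, and chance alone gives about 1 in 20. At the Angptl7 probe, high dose replicate 3 had a log2 ratio of -3.01, with the nearest array of its group at -2.22. Without it the high dose difference from control was -2.35. At the Angpt1 probe, control replicate 5 stood at 0.34, with the nearest control at -1.43, and low dose replicate 4 at 0.06, with the nearest array at -1.62. At the Plin2 probe, medium dose replicate 1 stood at -0.50, with the nearest array at 0.18, and without it the medium dose difference was 1.18.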

How the results depend on the processing

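Direction held in all 42 alternatives for each difference that met the call rule. With the replicate block in place of slide, the counts were 1, 2 and 3 of the 6 genes and 12, 16 and 18 listed genes at the low, medium and high dose, and 6 listed genes high against low dose. That fit changed 2 further calls, adding Vegfa at the low dose and losing Foxo1 at the high dose. For the 6 genes, the medium dose count of 2 became 1 with normexp, median centring or a 2-fold threshold, and without slide 2 or 5, and 0 without slide 1. The high dose count of 3 became 1 with median centring or without slide 1, and the low dose count of 1 became 2 without slide 1. For listed genes, median centring gave 3, 7 and 10 calls with rising dose and 0 high against low. A 2-fold threshold gave 6, 8 and 8, and 1 high against low. Without slide 1 no listed gene was called at the medium dose. The 3 calls high against low became 1 with the scanner software's log ratio, the authors' values, no slide term or without slide 5, and 0 without slide 2 or 4. Leaving out single arrays gave 1 to 1, 1 to 3 and 2 to 3 calls among the 6 genes and 0 to 0 high against low. Among listed genes it gave 8 to 12, 12 to 16, 16 to 19 and 0 to 4. Why these settings changed the counts was not tested. Fold changes of Angptl7, Angpt1, Angpt2 and Tek are limited by a sample signal at background.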
